A study of Mus musculus with 24 samples.

Results

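The transcripts described here are those of 751 genes that were read as several transcripts at once in C2C12 mouse cells, labelled myoblast. A gene was a member when at least 2 of its annotated transcripts each had 50 or more reads over 12 libraries, and 751 of the 15177 genes with reads met this. Their 1732 transcripts of 50 or more reads were tested, of 3629 listed for these genes, and the members held 42.4% of all 3309635 reads. C2C12 is an established myogenic line that fuses into contractile myotubes. All 12 libraries were labelled wild type. The 6 control libraries came from C2C12 cells grown without co-culture, and the 6 co-culture libraries from C2C12 cells kept for 3 days with NSC34, a mouse motor neuron-like line. The comparison asks whether the company of motor neuron-like cells went with another choice of transcripts within genes or with other levels of single transcripts. Total RNA was sequenced on a MinION nanopore device, which reads long stretches of single molecules. The labels give numbered replicates but do not say that they were separate cultures, so each p-value measures only the spread between these libraries. They also do not say how C2C12 and NSC34 cells were separated at harvest. Both lines are mouse, so NSC34 reads in a co-culture library could not be told apart by species. The part of such reads in the differences below was not tested.

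Most mammalian genes are transcribed from several start sites, spliced in several ways and ended at several sites, so that 1 gene gives transcripts with different ends, different coding parts or no coding part at all. Muscle is rich in such choices: tropomyosins, troponin T, the actin capping protein and the mitochondrial phosphate carrier each have a form made mainly in striated muscle beside forms made in most cells. Regulators of the MBNL, CELF and RBFOX families shift many of these choices as myoblasts mature. Transcripts that keep an intron or carry an early stop codon usually give no full protein, and those with an early stop are degraded by nonsense-mediated decay.

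Depth ranged from 121154 to 658075 reads per library. Member genes took 41.3 to 43.3% of the reads of each library, and 1410 to 1663 of the tested transcripts had at least 1 read in a given library. All 11 fixed muscle markers had reads, and their summed level was 9097 to 11696 CPM in the controls and 12295 to 13686 in co-culture, so that the groups did not overlap. Of the 11, 9 had a higher mean in co-culture, with Ckm, Mb and Tnnt1 the 3 without overlap, while the embryonic myosin gene Myh3 went from a mean of 447 to 359 CPM and the fusion gene Mymk from 524 to 515 CPM. Over all 5681 transcripts tested for level, 0.898% had groups without overlap, and the rate over genes was not measured. The libraries labelled myoblast held 1803 to 2747 CPM in the controls and 2491 to 3672 in co-culture of myogenin (Myog), the factor that marks entry into differentiation, and 6.51 to 28.1 CPM in the controls and 20.9 to 72.6 in co-culture of Myod1. Reads of 13 of 19 neuron and motor neuron markers summed to 189 to 281 CPM in the controls and 198 to 222 in co-culture, with Stmn3, Chat, Slc18a3, Isl1, Mnx1 and Elavl3 at 0. The 5 glial markers summed to 0 to 9.38 CPM in the controls and 0 to 13.9 in co-culture, with Gfap and Sox10 at 0. The neuron and glial sums overlapped between the groups. The part of the muscle marker difference in the results below was not tested.

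Most members had a small repertoire. A pair of tested transcripts was seen in 605 genes, 3 in 96, 4 in 30 and 5 or more in 20, with a maximum of 8. The second transcript of 108 members had 50 to 59 reads and lay just inside the threshold, while 195 genes outside had a second transcript of 40 to 49 reads. Of the members, 746 were protein-coding genes. Protein-coding models took 92.6% of the reads of tested transcripts, nonsense-mediated decay models 2.62%, retained-intron models 2.43% and processed transcripts 1.99%.

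The share of a transcript, that is its percent of all reads of its gene in a library, is the quantity followed from here on. Pooled over the libraries, the leading transcript had a median share of 64.3% (interquartile range 52.4 to 79.5%). It exceeded 90% in 79 genes and stayed under 50% in 148. In 73 genes the leading model was not of the protein-coding type, and in 45 of these it was a retained-intron model and in 12 a nonsense-mediated decay model. The leading transcript was the same in every one of the 12 libraries in 321 genes.

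Shares varied between replicates more than read counting alone gives. The chi-square of the reads of a transcript across the 6 controls, divided by its degrees of freedom, had a median of 2.64, where counting error alone would give about 1, and it was over 2 in 1034 of 1729 transcripts. The same median was 2.5 in co-culture. For the leading transcript alone, the median was 3.66 in the 51 genes whose 2 leading models differ in 50 bases or fewer (median 706 reads per gene) and 2.01 in the 347 genes whose models differ in more than 1000 (median 375 reads). It was 4.28 in the 131 genes whose leading pair differs only in internal splicing (median 491 reads) and 1.84 in the 152 that differ at the last intron (median 416 reads). This ratio grows with reads where shares vary beyond counting, and the part of depth in these differences was not tested. In addition, 158 transcripts in 111 genes had 0 reads in a library where their mean share gives 10 or more, in 295 cases in all. In 313 genes with at least 20 reads in every library, 805 transcripts had a median SD of 5.2 percentage points between controls and a median absolute difference between the group means of 1.79 points.

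**Figure D1:**
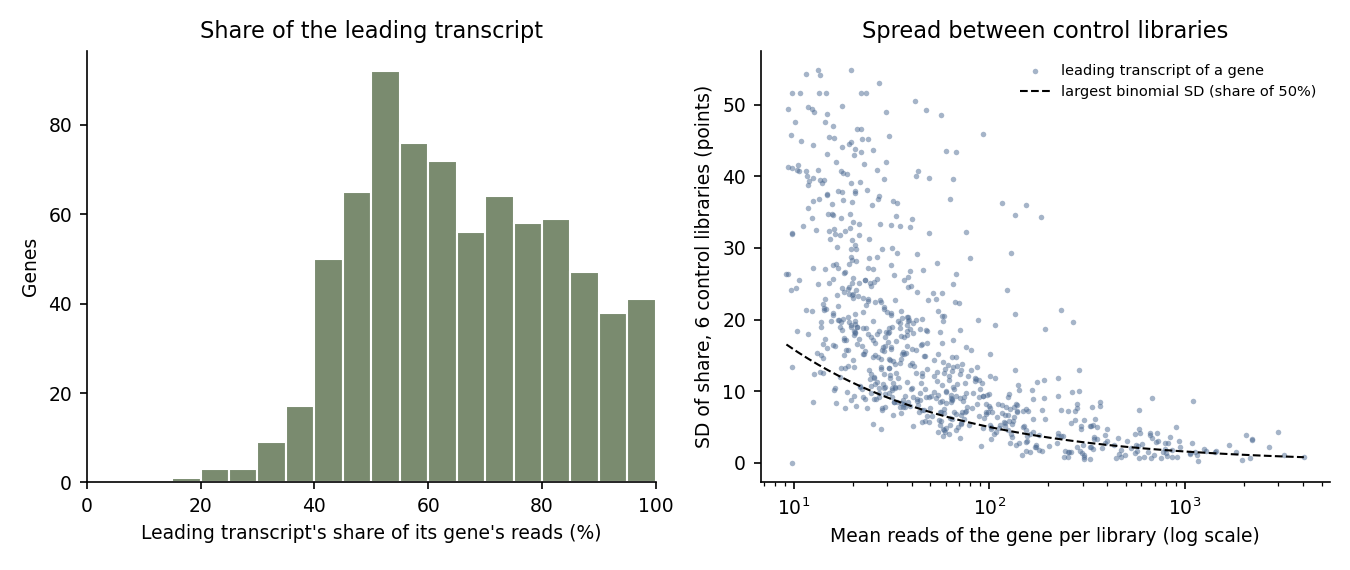
Left, number of member genes by the share of their leading transcript, pooled over the 12 libraries, in percent of the reads of the gene. Right, SD of the share of the leading transcript between the 6 control libraries, in percentage points. It is set against the mean reads of the gene per library on a log scale. The dashed line is the SD that binomial counting gives for an even split in a library of that mean depth. Many genes lie above the line. Libraries differ in depth, and counting alone gives a larger SD in those shallower than the mean. A gene above the line therefore need not vary beyond counting.

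No transcript was called for a change of share by the main test. edgeR compared the log2 change of each transcript with that of its gene and called 0 of 1732 transcripts and 0 of 751 genes (0.0% of either, background 0.0%) at an adjusted p under 0.05, with 0.661 as the smallest adjusted p. An unadjusted p under 0.05 was found for 39 transcripts (2.25%), and 1178 had one over 0.5. An exact two-sided permutation test of each share over the libraries also called 0 of 1717, with 104 unadjusted p-values under 0.05 (6.06%) and a smallest adjusted p of 0.354. The smallest p this design allows is 0.00216. After adjustment over 1717 tests, a call would need many more shares at or near this value than the 10 that reached it. The 0 calls of the permutation test were therefore nearly fixed by the design. Counts were also simulated with the means, spread and library sizes of these transcripts, with some transcripts other than the leading one changed. There the edgeR share test recovered 12 of 100 transcripts changed 2-fold and 44 of 100 changed 4-fold. The absence of calls therefore does not show that shares stayed the same.

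A second tool gave a small number of calls. limma's diffSplice called 8 transcripts and 10 genes, and the 8 were Tpm1-205, Suclg1-201, Suclg1-206, Rbfox2-214, Cbfb-201, Cbfb-202, Cdc42-201 and Cdc42-202, 5 of them with a higher share. Only Tpm1-205 remained when transcripts at 0 in a library with 10 or more expected reads were left out. Tpm1-205, Suclg1-206 and Rbfox2-214 remained without control replicates 1 and 4. An unadjusted limma p under 0.05 was found for 197 of 1732 transcripts (11.4%), beside 39 (2.25%) in edgeR. On the counts generated for the edgeR share test above, limma recovered 23 of 100 transcripts changed 2-fold and 56 of 100 changed 4-fold. There limma also called 13 of 1246 unchanged transcripts, and edgeR called 0. Whether any of the 8 limma calls was of this kind was not tested.

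**Figure D2:**
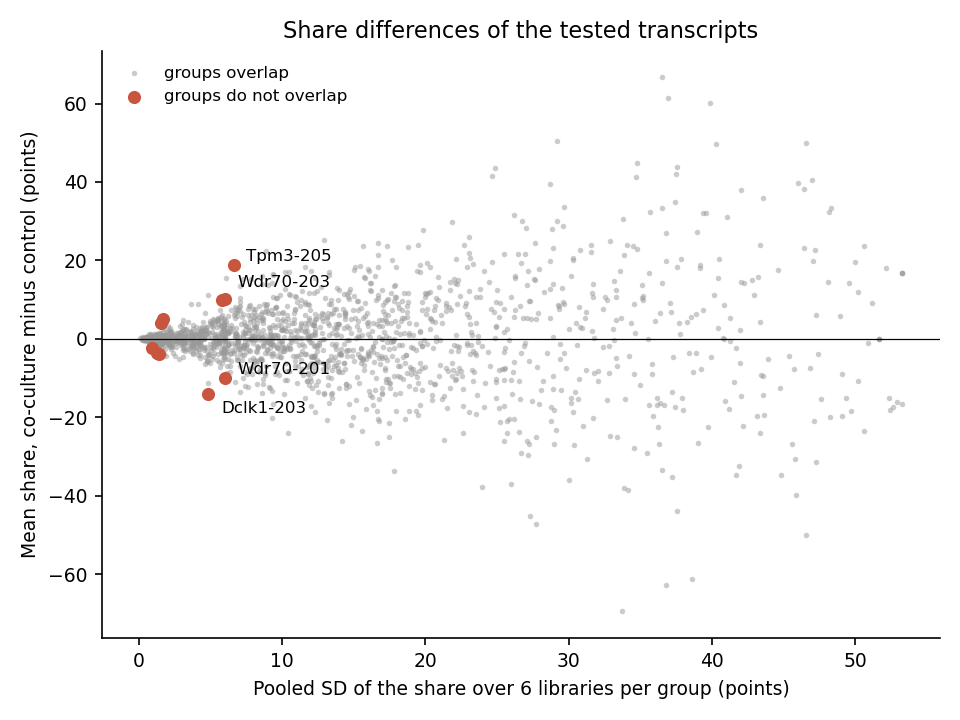
Difference of the mean share, co-culture minus control, in percentage points, against the pooled SD of the share over the 6 libraries per group, for each tested transcript (grey) and for the 10 whose groups do not overlap (red). The differences widen with the SD. They lie on both sides of 0, which follows in large part from shares of a gene adding up to a whole. Tpm3-205 has the largest difference among the non-overlapping transcripts, at 18.9 points.

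The exons that tell the muscle transcripts apart are given next, since the shares that follow count reads assigned to one or the other. They were read from the GRCm38 reference on the coding strand, in upper case for the exon's coding part and lower case for the 12 coding bases before it, 24 for Rps24. In the first pair, the ends of Tpm1, the gene of alpha-tropomyosin, start from the same bases and then differ: the end of Tpm1-205 (chr9:67029664-67029742, minus strand, shown without the last coding base, which lies in the next exon) is the one known from striated muscle, and that of Tpm1-216 (chr9:67023362-67023441, minus strand) the one of smooth muscle and non-muscle cells.
Tpm1-205 end: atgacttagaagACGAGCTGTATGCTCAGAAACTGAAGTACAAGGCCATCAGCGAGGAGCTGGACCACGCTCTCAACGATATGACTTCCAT
Tpm1-216 end: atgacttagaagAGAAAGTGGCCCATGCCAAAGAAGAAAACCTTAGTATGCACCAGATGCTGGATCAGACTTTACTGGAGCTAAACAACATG
The next pair shows the second exon that long tropomyosins share, in Tpm1 (chr9:67047786-67047911, minus strand) and in Tpm3-205 (chr3:90073720-90073845, plus strand). The 2 exons match at 93 of 126 bases (73.8%). The short Tpm3-201 lacks it and starts in an exon of its own (chr3:90079732-90079863, plus strand), whose coding part begins with the start codon.
Tpm1 second exon: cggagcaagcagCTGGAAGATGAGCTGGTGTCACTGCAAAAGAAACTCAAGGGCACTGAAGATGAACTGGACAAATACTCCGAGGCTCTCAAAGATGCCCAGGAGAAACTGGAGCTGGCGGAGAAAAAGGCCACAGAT
Tpm3-205 second exon: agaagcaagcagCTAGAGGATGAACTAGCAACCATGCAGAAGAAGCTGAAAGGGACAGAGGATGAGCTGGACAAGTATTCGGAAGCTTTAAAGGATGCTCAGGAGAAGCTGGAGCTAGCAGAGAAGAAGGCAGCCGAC
Tpm3-201 first coding exon: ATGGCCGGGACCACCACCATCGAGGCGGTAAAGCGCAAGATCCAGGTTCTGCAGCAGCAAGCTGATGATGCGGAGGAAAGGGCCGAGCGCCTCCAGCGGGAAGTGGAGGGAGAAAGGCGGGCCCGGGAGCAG
Slc25a3, the mitochondrial phosphate carrier, uses 1 of a pair of neighbouring exons. Slc25a3-206 holds the one known from heart and skeletal muscle (chr10:91122207-91122331, minus strand) and Slc25a3-201 the one of most other tissues (chr10:91121922-91122043, minus strand).
Slc25a3-206 exon: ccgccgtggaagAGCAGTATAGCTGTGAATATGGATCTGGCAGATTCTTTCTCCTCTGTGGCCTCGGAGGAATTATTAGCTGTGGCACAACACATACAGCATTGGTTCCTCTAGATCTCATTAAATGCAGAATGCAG
Slc25a3-201 exon: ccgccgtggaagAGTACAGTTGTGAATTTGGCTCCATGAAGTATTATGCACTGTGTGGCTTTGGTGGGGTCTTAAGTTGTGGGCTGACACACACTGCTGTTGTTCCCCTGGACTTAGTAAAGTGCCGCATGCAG
Capzb, the beta subunit of the capping protein that closes the barbed end of actin filaments, has an extra exon in Capzb-203 (chr4:139288861-139288960, plus strand), which gives the end of the Z-disc form.
Capzb-203 extra exon: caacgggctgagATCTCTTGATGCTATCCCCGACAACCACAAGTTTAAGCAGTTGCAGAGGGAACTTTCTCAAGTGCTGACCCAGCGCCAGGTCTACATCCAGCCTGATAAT
Cdc42, a small GTPase of the actin cytoskeleton, ends in 1 of a pair of exons that match at 57 of 87 bases (65.5%). The end of Cdc42-202 (chr4:137321106-137321192, minus strand) is the widespread one and that of Cdc42-201 (chr4:137322533-137322619, minus strand) is known from brain.
Cdc42-202 end: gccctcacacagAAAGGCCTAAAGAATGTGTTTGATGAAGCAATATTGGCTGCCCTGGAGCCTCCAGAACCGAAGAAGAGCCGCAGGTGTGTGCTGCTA
Cdc42-201 end: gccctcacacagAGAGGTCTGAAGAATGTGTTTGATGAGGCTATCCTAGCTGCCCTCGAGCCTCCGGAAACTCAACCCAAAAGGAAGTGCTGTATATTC
Rps24, a protein of the small ribosomal subunit, has a short exon of 18 bases in Rps24-205 (chr14:24494052-24494069, plus strand), shown whole in upper case, in which the coding sequence ends after 3 bases.
Rps24-205 short exon: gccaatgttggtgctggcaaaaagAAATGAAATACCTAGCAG

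Among the tropomyosins, coiled coils that lie along actin filaments, the long striated forms had higher mean shares in co-culture in Tpm1 and Tpm3 and the same mean share in Tpm2. Tpm1-205 (284 residues) took from 64.2 to 74% of the reads of the gene in the controls (median 67%) and from 72.5 to 80.3% in co-culture (median 77.7%). The highest controls overlapped the lowest co-culture libraries. The mean moved from 68.2 ± 4.2% to 77 ± 2.94% (SD, n = 6 each), which edgeR did not call (log2 change 0.18, SE 0.134, edgeR adjusted p = 1) and limma did (adjusted p = 0.00212). Tpm1-216, with the other end, took from 14 to 24.5% of the reads of the gene in the controls (median 17.3%) and from 11.4 to 15.2% in co-culture (median 12.4%). It was not called either (log2 change -0.51, SE 0.184, edgeR adjusted p = 1; unadjusted p = 0.00758). Tpm1-201 went from 3.67 ± 1.2% to 2.15 ± 0.458% (edgeR adjusted p = 1).

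Summed over all listed Tpm1 transcripts that hold it, the striated-type end made up 74.4 ± 4.49% in the controls and 81.7 ± 2.53% in co-culture (SD, n = 6 each). The other end made up 21.6 ± 3.68% in the controls and 15.6 ± 1.7% in co-culture (SD, n = 6 each), and the second exon shown above 99.5 ± 0.443% in the controls and 99.1 ± 0.731% in co-culture (SD, n = 6 each). These exon sums were chosen after the transcript shares were seen and have no test. The other tested Tpm1 transcripts, Tpm1-203, Tpm1-213, Tpm1-210, Tpm1-207 and Tpm1-219, each had a mean share of at most 2.57% in either group.

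Tpm3-205, the long Tpm3 form of slow muscle with 284 residues, took from 0 to 14.6% of the reads of the gene in the controls (median 9%) and from 16 to 37.5% in co-culture (median 27.4%). Its groups did not overlap, and control 4 had no read of it. The mean went from 8.4 ± 5.97% to 27.2 ± 7.21%, on 33 reads in the controls and 114 in co-culture, and was not called (log2 change 1.40, SE 0.483, edgeR adjusted p = 1; exact permutation p = 0.00216, adjusted 0.354). The second exon of Tpm3-205 was held by 0 to 17.5% in the controls (median 9%) and 20 to 37.5% in co-culture (median 31.5%) of Tpm3 reads. This sum over Tpm3-204 and Tpm3-205 counts the Tpm3-205 reads again. Its lack of overlap is therefore no separate observation, and it has no test. The short Tpm3-201 (248 residues) had a mean of 53.2 ± 19.7% to 40 ± 11.2% and the short Tpm3-202 of 31 ± 22.1% to 17.1 ± 9.27%, with overlapping groups in both. Tpm3 had 15 reads in its shallowest library.

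In Tpm2, beta-tropomyosin, Tpm2-202 kept the lead at 78.4 ± 5.56% to 78.4 ± 2.16% (log2 change 0.01, SE 0.148, edgeR adjusted p = 1). Tpm2-203 had 12.2 ± 3.95% to 12.9 ± 3.71% and Tpm2-201 7.6 ± 3.78% to 6.74 ± 2.12%. Tpm4 was no member, since its leading transcript Tpm4-201 held 99.6% of its reads.

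Of the other genes with a known muscle form, Slc25a3 had a higher mean share of the muscle exon in co-culture, Ldb3 had a lower mean share of its main form, the Capzb mean was lower through 1 library, and no share passed the test. Slc25a3-206 (358 residues) took from 40.9 to 63.5% of the reads of the gene in the controls (median 46.8%) and from 50 to 64.8% in co-culture (median 56.3%), with overlapping groups and log2 change 0.22, SE 0.148, edgeR adjusted p = 1. Slc25a3-201 (357 residues) took 36.5 to 59.1% in the controls and 31 to 44.8% in co-culture (log2 change -0.29, SE 0.158, edgeR adjusted p = 1). Summed over all transcripts that hold it, the muscle exon was in 51.4 ± 7.32% in the controls and 60.1 ± 4.76% in co-culture (SD, n = 6 each) of the reads. NSC34 reads, here and below, were pooled over 12 libraries, NSC34 controls and NSC34 co-cultures with C2C12 together. The muscle exon was in 0 of 41 of their Slc25a3 reads (exact 95% interval 0 to 8.6%) and the other exon in 41 of 41.

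Capzb-203 (277 residues) took from 37.1 to 63.6% of the reads of the gene in the controls (median 51.3%) and from 12.9 to 57.1% in co-culture (median 50.1%), and Capzb-204 (272 residues) most of the rest. Co-culture replicate 4 stood apart with a Capzb-203 share of 12.9%, below all other libraries. The mean of Capzb-203 was 51.2 ± 9.04% to 45.4 ± 16.4% (log2 change -0.14, SE 0.285, edgeR adjusted p = 1). Without that library the co-culture mean was 51.9 ± 4.24% (SD, n = 5), above that of the controls, so the direction turned. The NSC34 libraries had 0 of 14 reads on Capzb-203 and 12 of 14 reads on Capzb-204.

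The Z-disc protein gene Ldb3 was read mainly as Ldb3-205 (684 residues), which took from 55.6 to 90.6% of the reads of the gene in the controls (median 82.7%) and from 0 to 77.8% in co-culture (median 60.5%). 1 co-culture library had no read of it, the groups overlapped, and the share was not called (log2 change -0.27, SE 0.376, edgeR adjusted p = 1). The shorter Ldb3-207 (288 residues) had 16.8 ± 4.64% to 24.4 ± 10.5%. Pdlim7, another PDZ and LIM protein of the Z-disc, gave Pdlim7-203 57.7 ± 7% to 52.1 ± 5.77%, Pdlim7-202 23 ± 11.3% to 30.2 ± 5.79% and the 457-residue Pdlim7-201 16.6 ± 5.58% to 10.3 ± 4.33%. None of these passed the edgeR test.

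Bin1, which shapes the membrane of T-tubules, gave Bin1-202 (477 residues) 60.9 ± 16.7% to 61.8 ± 13.8% and Bin1-205 (410 residues) 30.1 ± 14.6% to 28.8 ± 12.2%. Of the MEF2 transcription factors, which drive muscle genes, Mef2c-218 had 39.4 ± 8.37% to 52.5 ± 15.9% and Mef2c-228 25.1 ± 18% to 22.6 ± 12.5%, while Mef2a-201 had 35.1 ± 18.1% to 30.7 ± 17.2% on as few as 3 reads of the gene in 1 library. Ncam1, an adhesion molecule of fusing myoblasts, kept Ncam1-204 (848 residues) at 65.3 ± 7.08% to 65.1 ± 3.47%. The edgeR adjusted p was 1 for each of these transcripts.

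The calcium pumps of the sarcoplasmic reticulum were thinly read. Atp2a1-201 (994 residues) went from 84.8 ± 18.4% to 74.6 ± 16.3%, and Atp2a2-202 (998 residues) from 45.1 ± 39.8% to 69.9 ± 24.1% against Atp2a2-203 (1044 residues, annotated as a decay target) at 54.9 ± 39.8% to 30.1 ± 24.1%. Atp2a2 had 1 read in its shallowest library, and its shares ran from 0 to 100% within the controls. Neither gene passed the test.

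Cdc42 was named after its values were seen, because limma called it. Cdc42-201, with the end known from brain, took from 6.67 to 21.5% of the reads of the gene in the controls (median 15.9%) and from 20.6 to 32.8% in co-culture (median 26.2%). The highest control, at 21.5%, lay above the lowest co-culture library, at 20.6%. edgeR did not call it (log2 change 0.76, SE 0.225, edgeR adjusted p = 1; unadjusted p = 0.0113), while limma gave an adjusted p of 0.0470 on a log2 change of 1.01. NSC34 had 4 of 20 Cdc42 reads on Cdc42-201 (20%, exact 95% interval 5.73 to 43.7%).

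**Figure D3:**
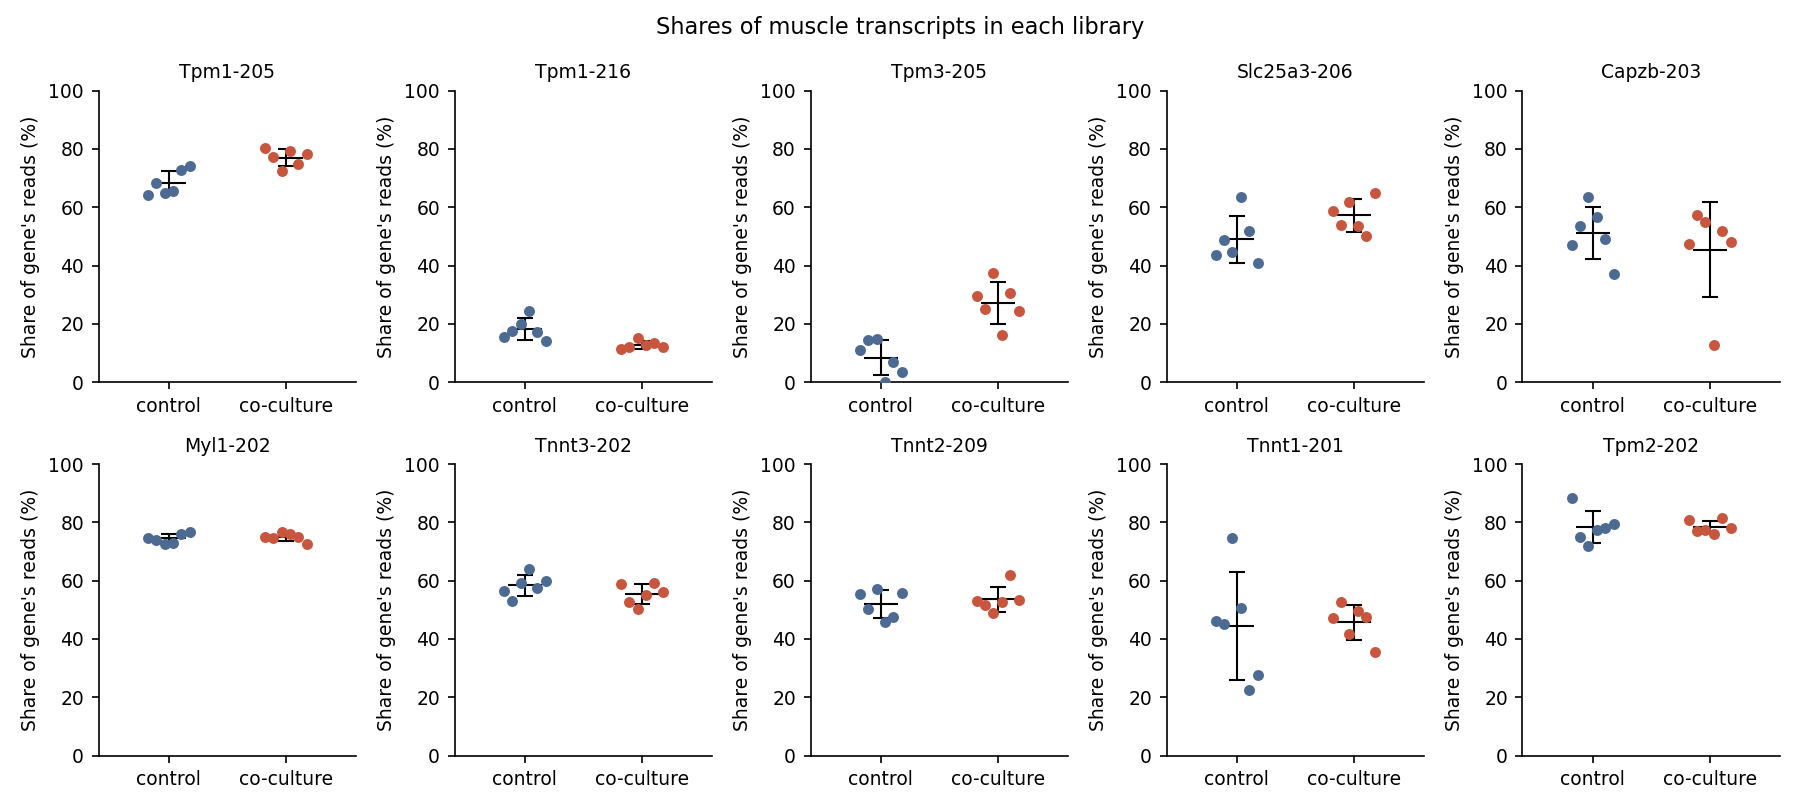
Share of 10 muscle transcripts, in percent of the reads of their gene, in each of the 6 control (blue) and 6 co-culture (red) libraries, with the mean and SD as black bars. Tpm3-205 is the panel without overlap between the groups, Tpm1-205 and Slc25a3-206 overlap with a higher co-culture mean, and the lower row shows near-equal means.

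The light chain genes Myl1 and Myl6 had near-equal mean shares in both groups. Myl1, the fast alkali light chain gene, starts at either of a pair of promoters. Myl1-202 (150 residues) took from 72.6 to 76.8% of the reads of the gene in the controls (median 74.3%) and from 72.4 to 76.6% in co-culture (median 75%) and Myl1-201 (188 residues) took from 20.2 to 23.5% of the reads of the gene in the controls (median 22%) and from 20 to 22.6% in co-culture (median 21.8%). Both groups covered the same range in each, on at least 548 reads of Myl1 per library (log2 change 0.01, SE 0.0984, edgeR adjusted p = 1). In Myl6, a non-muscle and smooth muscle light chain, Myl6-206 had 68.1 ± 3.23% to 68.2 ± 3.1% and Myl6-201 29 ± 3.42% to 28.7 ± 2.45%.

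Troponin T ties the troponin complex to tropomyosin and has 3 genes. In the cardiac and embryonic Tnnt2, Tnnt2-209 (302 residues) had 52 ± 4.73% to 53.6 ± 4.34%, Tnnt2-205 20.7 ± 5.81% to 18.8 ± 8.65% and Tnnt2-211 17.9 ± 3.47% to 20.5 ± 8.5%. In the fast Tnnt3, Tnnt3-202 (268 residues) had 58.4 ± 3.66% to 55.4 ± 3.46%, Tnnt3-215 16.1 ± 2.3% to 16.1 ± 3.31% and Tnnt3-225 13.7 ± 3.34% to 16.6 ± 5.21%. In the slow Tnnt1, Tnnt1-201 (261 residues) had 44.5 ± 18.6% to 45.7 ± 6.03% and Tnnt1-203 (262 residues) 43.2 ± 21.8% to 45.2 ± 7.23%. The controls of Tnnt1-201 ran from 22.4 to 74.8%, a wider range than co-culture (35.7 to 52.5%). The edgeR adjusted p was 1 for all of these troponin transcripts.

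For the 24 members of the contractile list, 86 transcripts were tested, 0 were called, 3 had an unadjusted edgeR p under 0.05 and 1, Tpm3-205, had groups that did not overlap. Over all tested transcripts, 2.25% had an unadjusted edgeR p under 0.05 and 0.582% had groups that did not overlap. The median absolute difference of mean share on this list was 1.37 points, beside 4.34 points over all member transcripts. In member genes with at least 20 reads in every library it was 1.79 points. The part of depth in the lower value of this list was not tested.

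Groups that did not overlap at all were found for 10 of 1717 transcripts (0.582%) in 9 genes, 5 with a higher and 5 with a lower share in co-culture. The exact permutation p of each was 0.00216, the smallest this design allows, with an adjusted p of 0.354, so none was called. Beside Tpm3-205, the largest differences were in Dclk1 and Wdr70. Dclk1-203, a 363-residue short form of the doublecortin-like kinase, took from 75 to 87.4% of the reads of the gene in the controls (median 80.2%) and from 61.6 to 73.5% in co-culture (median 66.2%). The long Dclk1-204 (739 residues) had 9.3 ± 8.18% to 17.2 ± 10.6% and Dclk1-201 (756 residues) 6.29 ± 10% to 8.36 ± 13%. Wdr70-203, a model of 87 residues, took from 69 to 87.5% of the reads of the gene in the controls (median 84.7%) and from 88 to 98.5% in co-culture (median 90.7%), and Wdr70-201 (657 residues) the rest. Wdr70 had 13 reads in its shallowest library.

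Cdkn1a, the cell cycle inhibitor p21, had the smallest edgeR p of all shares. Cdkn1a-202 took from 4.69 to 8.29% of the reads of the gene in the controls (median 5.56%) and from 0.714 to 3.97% in co-culture (median 2.31%). It encodes the same 159 residues as the leading Cdkn1a-201 (90.8 ± 2.27% to 94 ± 1.78%) and starts further upstream. Its log2 change -1.48, SE 0.375, edgeR adjusted p = 0.661 rested on 127 reads in the controls and 39 in co-culture. Spp1-204, a minor transcript of osteopontin, took from 2.2 to 5.88% of the reads of the gene in the controls (median 3.2%) and from 0.932 to 1.9% in co-culture (median 1.2%) (log2 change -1.31, SE 0.465, edgeR adjusted p = 1), on 65 reads in all.

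The remaining 4 were chosen after their values were seen. Rps24-205 went from 26.4 ± 1.21% to 31.5 ± 2.09% (controls 24 to 27.1%, co-culture 28.6 to 33.2%). Its short exon was in 26.7 ± 1.38% in the controls and 31.8 ± 2.17% in co-culture (SD, n = 6 each) of the reads, and in 9 of 130 NSC34 reads (6.92%, exact 95% interval 3.21 to 12.7%). Rps28-205, of another small-subunit protein, went from 62.4 ± 1.94% to 66.3 ± 1.04%. H3f3a-205, of histone H3.3, went from 94.2 ± 0.800% to 90.7 ± 1.65%, and Thoc7-201, of an mRNA export complex, from 50.6 ± 4.82% to 60.4 ± 6.61%. Ribosomal protein and histone genes have near-identical copies, so how reads were divided between copies bears on these shares and was not tested.

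The 6 genes with the smallest edgeR p for a share were Cdkn1a, Cdon, Map4, Sub1, Synpo2 and Rbm39. In Cdon, Synpo2 and Map4, 1 transcript was at 0 in at least 5 of the 6 controls. Cdon, a surface receptor of differentiating myoblasts, was read in every control as Cdon-201, whereas Cdon-202, which encodes the same 1250 residues, had a median share of 100% in co-culture (0 to 100%). The gene had 118 reads in all and 3 in its shallowest library. Synpo2, an actin-bundling protein of the Z-disc, was read as Synpo2-207 (1087 residues) at 83.3 ± 40.8% to 22.1 ± 36.2% and as Synpo2-201 (702 residues) at 16.7 ± 40.8% to 76.8 ± 38.8%, and control 1 was the only control with Synpo2-201. Map4-205, of a microtubule-binding protein, had reads in 1 control and from 0 to 33.1% in co-culture. Its 4 other tested transcripts had mean shares from 16.4 to 29.5% in the 2 groups.

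Rbm39 and Sub1 showed graded differences. Rbm39, a splicing coactivator, gave Rbm39-203 (530 residues) from 9.38 to 40.9% of the reads of the gene in the controls (median 25%) and from 38 to 50% in co-culture (median 47.4%), and Rbm39-201 (524 residues) 15.9 ± 10.1% to 3.71 ± 3.72% (log2 change -1.71, SE 0.565, edgeR adjusted p = 1). Sub1-203, a retained-intron model of the transcription coactivator gene Sub1, went from 19.1 ± 12.4% to 5.85 ± 4.27% (log2 change -1.60, SE 0.484, edgeR adjusted p = 1), and the coding Sub1-201 from 79.1 ± 11.8% to 89.7 ± 5.88%. Every adjusted p among these 6 genes was 1 except that of Cdkn1a-202.

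The splicing regulators had 24 members, and no share of theirs was called. Of 57 splicing factors 24 were members with 70 tested transcripts. Of these, 5 had an unadjusted edgeR p under 0.05, beside 39 of 1732 over all members (2.25%). U2af1, which reads the 3' splice site, gave U2af1-201 79.2 ± 9.16% to 59.1 ± 9.42% and the decay model U2af1-208 2.22 ± 5.44% to 19.3 ± 13.8% (log2 change 1.87, SE 0.662, edgeR adjusted p = 1); 1 control had any read of U2af1-208. Of 14 muscle splicing regulators 5 were members with 14 transcripts. Rbfox2-214 (201 residues) took 0 to 40.5% in the controls and 16.4 to 38.8% in co-culture, and the call of limma (adjusted p = 0.0129) was not shared by edgeR (log2 change 0.49, SE 0.611, edgeR adjusted p = 1). Rbfox2-203, the leading form, had 43.2 ± 14.7% to 41.6 ± 9.92%. Fxr1-201, of an RNA-binding protein abundant in muscle, had 70.1 ± 6.69% to 75.1 ± 13.8%.

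Genes of basic cell functions had no called share. Of 87 ribosomal protein genes 58 were members with 154 transcripts, a median leading share of 86.6% and a median absolute difference of 0.630 points, and 2 of the 154 transcripts had groups that did not overlap, beside 0.582% of all tested shares. Fau-202 had 78 ± 3.63% to 80.3 ± 2.93% and Rpl22l1-206 67.4 ± 1.74% to 71.6 ± 6.87%. The decay model Rpl22l1-204 had 6.92 ± 2.97% to 3.23 ± 1.57% (log2 change -1.05, SE 0.383, edgeR adjusted p = 1). The 30 members of the respiratory chain list had a median absolute difference of 1.85 points, with Atp5j2-202 at 84.1 ± 9.39% to 84.1 ± 13.1%. Of the translation factors, Eef1b2-204 had 95.8 ± 2.75% to 94.1 ± 5.35% and the decay model Eif4g1-222 44.9 ± 24.3% to 64.3 ± 14.7% on 226 reads of Eif4g1. Of the 10 proteasome and ubiquitin members, Psmd8-201 had 39.1 ± 7.12% to 32.2 ± 10.4% and Psmc1-201 63.5 ± 11.7% to 70.2 ± 7.22%, and of the glycolytic enzymes Gapdh-203 had 87.8 ± 1.47% to 89 ± 0.840% and Ldha-202 95.4 ± 2.9% to 93.3 ± 2.28%.

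The matrix, cytoskeleton and lipid lists gave no called share either. Serpinh1-201, of the collagen chaperone HSP47, took from 72.4 to 86.7% of the reads of the gene in the controls (median 78.4%) and from 86.7 to 88.7% in co-culture (median 87.9%) and had log2 change 0.16, SE 0.222, edgeR adjusted p = 1. Fibronectin (Fn1) was read as 8 tested transcripts, and Fn1-201 (2477 residues) took from 0 to 22% of the reads of the gene in the controls (median 3.57%) and from 11.8 to 36.2% in co-culture (median 19.1%), with overlapping groups. Of the sterol enzymes, the retained-intron model Msmo1-203 took from 7.69 to 35.3% of the reads of the gene in the controls (median 25%) and from 33.3 to 50% in co-culture (median 37.1%) (log2 change 0.66, SE 0.296, edgeR adjusted p = 1), and Hmgcs1-202 had 49.1 ± 27.2% to 68.5 ± 26.1%. Clta-202, of clathrin light chain A, had 70.8 ± 18.3% to 76.1 ± 18.3%, and the 3 tested Gnas transcripts, of the stimulatory G protein, ran from 0% in at least 1 library of each group. Nedd4-201, of a ubiquitin ligase, had 69.6 ± 5.64% to 71.9 ± 12.9%, Nfix-204, of a fetal muscle transcription factor, 77.7 ± 4.01% to 78 ± 6.5%, and Hspa5-202, of the chaperone BiP, 78.3 ± 9.59% to 70.2 ± 11.2%. The acetylcholine receptor subunit gene Chrnd, the 1 member of the receptor clustering list, was led by the retained-intron model Chrnd-203 at 57.9 ± 10.3% to 56.5 ± 9.62%, with the coding Chrnd-201 at 30.3 ± 16.5% to 37.2 ± 11.8%. Lrp4 was no member, since Lrp4-201 held 99.3% of its reads, and Chrna1 had 1 listed transcript.

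The transcript with the highest mean share was not the same in the 2 groups in 125 genes, by no test. The 3 of these with most reads were Ndufa12, St13 and Ddx17. In Ndufa12, of respiratory complex I, Ndufa12-204 had 46.4 ± 11.3% to 45.7 ± 6.31% and Ndufa12-201 41.2 ± 14.1% to 47.4 ± 3.7%, with the ranges of both overlapping. In St13, a co-chaperone, the retained-intron St13-206 had 38.9 ± 7.22% to 40.9 ± 3.99% and St13-205 40.4 ± 2.42% to 38.6 ± 8.19%. In the RNA helicase Ddx17, Ddx17-201 (652 residues) had 29.8 ± 36% to 57 ± 41.7% and Ddx17-203 (650 residues) 68.2 ± 36.6% to 41.7 ± 41.3%, and within each group Ddx17-201 ran from 0% to at least 85.3%.

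Levels of single transcripts, in CPM of each library, gave a short list of calls. Of the 5681 transcripts tested over all genes, 10 passed (0.176%; 0.141% higher and 0.0352% lower), and 6 of these were members, 4 higher and 2 lower in co-culture. In bulk RNA, fewer cells of a type and less RNA per cell cannot be told apart. All 6 had groups without overlap, as had 20 member transcripts in all (1.15% of 1732, background 0.898%). The median log2 change was 0.02 over members and 0.01 over all tested transcripts.

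The firmest was Mb-203, the main transcript of myoglobin, the oxygen-binding protein of muscle. It ranged from 529 to 737 CPM in the controls (median 620.4) and from 921 to 1201 CPM in co-culture (median 1026), and rose (log2 fold change 0.76, SE 0.0915, edgeR adjusted p = 0.00315). The call held without any 1 of the 12 libraries (adjusted p from 0.00167 to 0.0155). Its share of Mb stayed at 86.5 ± 7.27% to 87 ± 6.66%, and Mb-202, which starts further upstream, had the remainder with a log2 level change of 0.72.

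Lgals3-204, of galectin-3, rose and ranged from 56.4 to 121 CPM in the controls (median 84.7) and from 149 to 232 CPM in co-culture (median 187) (log2 fold change 1.12, SE 0.195, edgeR adjusted p = 0.0354). The other Lgals3 transcript, Lgals3-201, encodes the same 264 residues and had a log2 change of 1.05 that was not called (adjusted p = 0.200). Fam162a-201, of a mitochondrial protein induced by low oxygen, rose and ranged from 199.5 to 291 CPM in the controls (median 240.2) and from 302 to 434 CPM in co-culture (median 407) (log2 fold change 0.67, SE 0.122, edgeR adjusted p = 0.0433). Spp1-202, the main osteopontin transcript, rose and ranged from 555 to 802 CPM in the controls (median 719.6) and from 927 to 1131 CPM in co-culture (median 1043) (log2 fold change 0.54, SE 0.0894, edgeR adjusted p = 0.0237), at a share of 82.2 ± 5.95% to 84.9 ± 1.22%.

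Fstl1-201, the full coding transcript of the secreted glycoprotein follistatin-like 1, fell and ranged from 247 to 348 CPM in the controls (median 278) and from 141 to 186 CPM in co-culture (median 163) (log2 fold change -0.77, SE 0.122, edgeR adjusted p = 0.0192). Its short partner Fstl1-206, without a coding sequence, was not called (log2 -0.15, adjusted p = 0.995). Cdkn1a-202 fell and ranged from 49.4 to 130.1 CPM in the controls (median 78.3) and from 8.15 to 35.7 CPM in co-culture (median 24.2) (log2 fold change -1.86, SE 0.349, edgeR adjusted p = 0.0498), while Cdkn1a-201 had a log2 change of -0.33 (adjusted p = 0.591). When each library was left out in turn, Cdkn1a-202 lost its call every time (adjusted p 0.0560 to 0.177). Fam162a-201 kept it in 2 of 12 (0.0238 to 0.166), Lgals3-204 in 2 (0.0375 to 0.139), Spp1-202 in 5 (0.0331 to 0.0816) and Fstl1-201 in 7 (0.0236 to 0.0703). Without control replicates 1 and 4 together, Mb-203 was the 1 call left.

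With the reads of all transcripts of a gene summed, 39 of 5416 genes passed (0.72%; 0.388% higher and 0.332% lower), and 15 were members. Leaving out 1 library moved the count of members from 15 to between 5 and 30. The 10 that rose were Lgals3 (log2 1.02, adjusted p = 0.00173), Mb (log2 0.75, adjusted p = 2.44e-05), Ankrd2 (log2 0.72, adjusted p = 0.0263), Atp2a1 (log2 0.68, adjusted p = 0.0477), Fam162a (log2 0.67, adjusted p = 0.00732), Map1lc3a, Spp1, Tnnt1, Vamp5 and Gapdh (the last 5 with log2 changes from 0.37 to 0.51), all in edgeR. The 5 that fell were Mef2a (log2 -1.19, adjusted p = 0.0411), Top2a (log2 -1.16, adjusted p = 0.0491), Hmgcs1 (log2 -1.01, adjusted p = 0.0195), Ahnak (log2 -0.62, adjusted p = 0.0297) and Fstl1 (log2 -0.62, adjusted p = 0.0185). Ankrd2 is a muscle stress protein of the nucleus and sarcomere, Map1lc3a an autophagy protein, Vamp5 a vesicle protein of muscle and Top2a the topoisomerase of dividing cells; these 4 were named after their values were seen.

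Of the 38 tested transcripts of these 15 genes, 5 were called on their own and 35 had a log2 change of the same sign as the gene, including the leading transcript of all 15. The gene value is a sum that holds these transcripts, so that like signs are partly fixed by it: in the 736 members not called at gene level, 1232 of 1694 transcripts (72.7%) and 579 leading transcripts (78.7%) also had the sign of their gene. The 3 exceptions among the 38 were minor transcripts, Spp1-204, Tnnt1-210 and Gapdh-201, none of which was called. In Atp2a1, the short Atp2a1-202 (145 residues) had a log2 change of 1.71 and the full Atp2a1-201 one of 0.48, neither called. In Ahnak, a giant scaffold protein, the full Ahnak-202 (5656 residues) had -0.49 and the short Ahnak-201 -1.78. A test of whether the transcripts of a gene differ is the share test above, which called none of the 15.

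**Figure D4:**
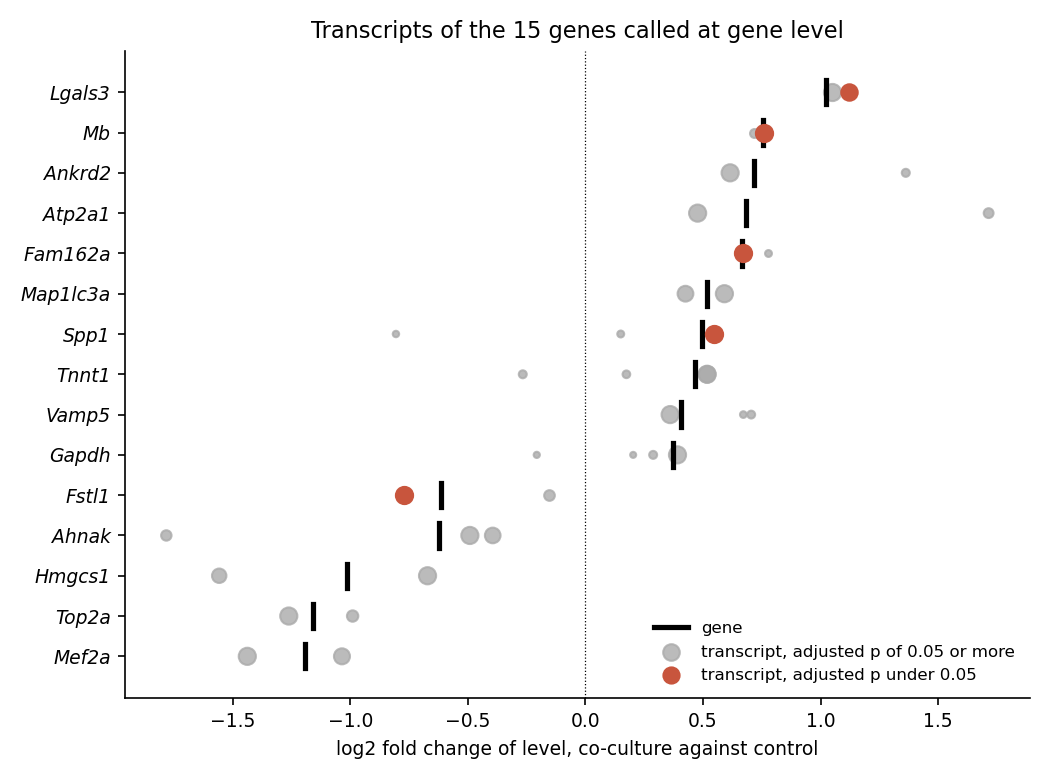
Log2 fold change of level, co-culture against control, of the 15 member genes called at gene level (black bars) and of each of their 38 tested transcripts (circles, red at an edgeR adjusted p under 0.05; larger circles have more reads relative to the best-read transcript of the gene). The larger circles lie close to the bar of their gene, and the circles across 0 from their bar are small.

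Classes of transcripts were measured per library over protein-coding members, and no difference between the groups was detected. Models that are not protein-coding took 6.66 ± 0.321% of these reads in the controls and 6.58 ± 0.378% in co-culture (SD, n = 6 each). Retained-intron models took 2.45 ± 0.111% of these reads in the controls and 2.47 ± 0.221% in co-culture. Nonsense-mediated decay models took 2.7 ± 0.364% of these reads in the controls and 2.58 ± 0.203% in co-culture, with control 1 highest at 3.36%. Coding models annotated as incomplete took 0.789 ± 0.110% of these reads in the controls and 0.740 ± 0.0805% in co-culture. The mean annotated length of the transcripts read, with each gene weighted equally, was 10.8 ± 0.00874 log2 bases in the controls and 10.8 ± 0.00447 in co-culture. In exact two-sided permutation tests over the libraries, the p adjusted over these 5 measures was 0.916 for each.

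**Figure D5:**
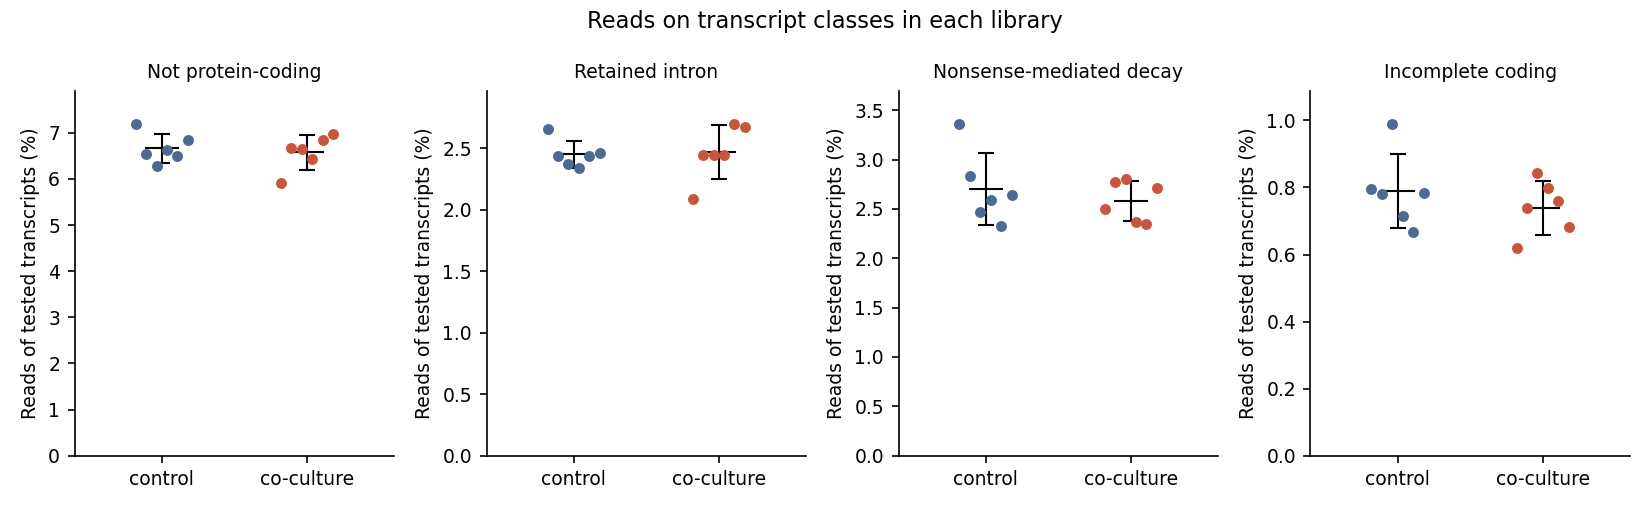
Percent of the reads of tested transcripts of protein-coding members on models that are not protein-coding, retained-intron models, nonsense-mediated decay models and incomplete coding models, in each control (blue) and co-culture (red) library, with the mean and SD as black bars. The groups overlap in every panel.

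The partner line was read far less, with 70865 reads over its 12 libraries (88 to 30314 each), and its shares are set beside those of C2C12 with no test. These libraries were NSC34 controls and NSC34 co-cultures with C2C12, and their reads were pooled. Of the members 332 had at least 10 NSC34 reads, and the leading transcript was that of C2C12 in 286 of these and another in 46. Slc25a3 was among the 46, as were Ndufa12 (Ndufa12-201 in 53 of 97 reads) and Ddx17 (Ddx17-203 in 19 of 19 reads). For Ncl, Npm1 and Hspa5 the leading transcript was shared, with Ncl-201 in 23 of 29 reads, Npm1-201 in 68 of 92 reads and Hspa5-202 in 32 of 34 reads. Of the muscle transcripts that led in C2C12, Myl1-202, Tnnt3-202, Bin1-202, Ldb3-205 and Atp2a1-201 had no read in NSC34, and neither had any other transcript of their genes there. Chat, Slc18a3, Isl1 and Mnx1, which define motor neurons, were at 0 in all C2C12 libraries, as given above. Other neuron markers had reads in both C2C12 groups. Stmn2 had a mean of 116 CPM in the controls and 103 in co-culture, and Tubb3 of 58.9 and 49.8. Levels of these markers in NSC34 are not given here, and the presence of NSC34 RNA in the co-culture libraries was not tested.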

How the data were processed

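The authors deposited a table of counts per transcript for C2C12 and one for NSC34, raw and in whole numbers. GRCm38 was the genome, per the submitters' processing notes, and libraries were MinION libraries of total RNA, per the labels' protocols. Which aligner, counter and annotation were used, whether strand was used, and how a read that fits several transcripts was assigned is not given in the sources used here. Transcript identifiers, without version, were matched to GENCODE M21 on GRCm38 for names, genes and positions (37415 of 37677 matched, 37048 with a version 1 higher than in M21); unmatched transcripts held 0.224% of reads and were left out of the members.

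Shares were tested in edgeR 4.0.16 (TMM, quasi-likelihood fit, diffSpliceDGE, Simes per gene) and levels by its quasi-likelihood test over all transcripts or genes with 50 or more reads, in 6 control and 6 co-culture libraries of 121154 to 658075 reads, with Benjamini-Hochberg adjustment and a threshold of 0.05 (R 4.3.3, Python 3.11.15). Scripts were tested on simulated data. limma 3.58.1, DESeq2 1.42.0, other scalings, filters, a replicate block and left-out libraries were alternatives. CPM (counts scaled to library size) used TMM-scaled sizes for transcripts and all reads for markers. Intervals are exact Clopper-Pearson at 95% and cover counting error only.

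The members, the 21 gene lists and the rules were chosen with earlier results of these data known. Genes were named as those with the smallest share p (6), the level calls smallest in p (5 per direction), members of a fixed list of genes known for regulated isoforms, up to 2 genes per other list by share p, the 3 largest share differences without overlap, and the 3 best-read genes whose leading transcript differs.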

Additional observations from a re-analysis of the deposited data

Results flagged for a closer look

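In 15 of 140 groups of 6 values, the highest or lowest library stood farther from its nearest neighbour than Dixon's 95% critical value for 6 libraries. The distance was taken as a part of the whole range. For normally distributed values, chance gives this in about 1 of 20 groups. Shares are bounded and some rest on few reads, so that rate need not hold here. A group with 5 libraries at 0 and 1 above 0 is always flagged. All 15 were shares of a named transcript. Control replicates 1 and 4, the 2 shallowest libraries, gave 6 of them. Map4-205 had 6.9% in control replicate 1, against 0% throughout in the other 5. Mb-202 had 0% in control replicate 1, against 12.8 to 20% in the other 5. Synpo2-201 had 100% in control replicate 1, against 0% throughout in the other 5. Fstl1-206 had 0% in control replicate 4, against 19 to 27.6% in the other 5. Npm1-204 had 2.44% in control replicate 4, against 14 to 19.8% in the other 5. Serpinh1-203 had 18.9% in control replicate 4, against 2.67 to 8.73% in the other 5. U2af1-208 had 13.3% in control replicate 2, against 0% throughout in the other 5. Mef2c-201 had 40% in control replicate 5, against 0 to 12.5% in the other 5. Mef2a-208 had 100% in control replicate 6, against 23.5 to 46.2% in the other 5.

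Capzb-204 had 87.1% in co-culture replicate 4, against 40 to 51.4% in the other 5. Psmd8-201 had 52.5% in co-culture replicate 4, against 23.8 to 31.5% in the other 5. Bin1-205 had 5.33% in co-culture replicate 5, against 27.7 to 37.6% in the other 5. Gnas-207 had 24.2% in co-culture replicate 5, against 0% throughout in the other 5. Mb-202 had 0% in co-culture replicate 3, against 12.2 to 17.3% in the other 5. Synpo2-201 had 0% in co-culture replicate 6, against 79.2 to 100% in the other 5. Co-culture replicates 4 and 5 gave 2 of these each. Reads of Mb, Npm1, Serpinh1 and Psmd8 were at least 31 in every library, while Synpo2 had as few as 1 and Mef2a as few as 3.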

How the results depend on the processing

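The count of called shares was 0 under TMM, RLE and library totals, read minimums of 20, 50 and 100, filterByExpr, the replicate block, without control replicates 1 and 4, with transcripts of the same coding sequence merged, without the transcripts at 0 where 10 or more reads were expected, in a fit of transcript reads against the other reads of the gene, in the exact permutation test and in each of 12 fits without 1 library. The 0 of the permutation test was nearly fixed by its smallest possible p, as given above. limma gave 8 transcripts and 10 genes, 1 and 4 without those transcripts at 0, and 3 and 3 without control replicates 1 and 4. Merging, leaving out those transcripts and the last 2 limma fits were chosen after seeing the data.

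Called levels were 6 transcripts and 15 genes, and 1 to 5 and 5 to 30 without 1 library. Transcript counts were 2 with library totals, 2 with a minimum of 20 reads, 1 without control replicates 1 and 4 and 16 in DESeq2, and the gene count was 8 without control replicates 1 and 4. The labels do not say that replicate numbers pair the libraries, and the rule that every same-numbered pair correlate over 0.1 was not met: the share correlations ran from -0.10 to 0.24, 4 of 6 over 0.1, and 3 of 6 controls correlated best with the co-culture library of their own number. On this ground the block was no part of the main test, and with the replicate block 1 transcript and 10 genes were called. The 6 named level calls kept their direction in 125 of 125 alternatives and their call in 62.

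Direction turned for measures that were not called. The share of models that are not protein-coding differed by 0.0756 points as a mean over genes and 0.0437 without control replicates 1 and 4 (without 1 library -0.160 to 0.0532), decay models by 0.0170 without control replicates 1 and 4 (-0.196 to 0.0115), retained introns by -0.0355 over all transcripts (-0.0299 to 0.0925) and length by 0.000321 log2 over all transcripts (-0.00366 to 0.00218).

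Of 1236 alternatives for 59 named shares, 42 turned the sign: with the replicate block Ncam1-201 0.0305 and Nedd4-205 -0.0357; without control replicates 1 and 4 Clta-203 0.00634, Fam162a-202 -0.0378 and Ncam1-201 0.0721; in limma Chrnd-201 -0.27, Fam162a-202 -0.18, Ncam1-201 0.00655 and Nedd4-205 -0.0154; against other reads of the gene Ncam1-201 0.0653 and Nedd4-205 -0.13. As differences in points, Lgals3-201 was 2.51, Mef2a-208 -6.22, Ncam1-201 0.883 and Nedd4-205 -0.519. Without 1 library the log2 changes ran over 0 in Lgals3-201 (-0.14 to 0.0784), Mb-202 (-0.25 to 0.18), Ncam1-201 (-0.0591 to 0.13), Nedd4-205 (-0.18 to 0.23), Clta-203 (-0.66 to 0.16), Fam162a-202 (-0.15 to 0.67), Mef2c-201 (-0.89 to 0.0875), Chrnd-201 (-0.0568 to 0.50), Capzb-204 (-0.0149 to 0.22) and Bin1-205 (-0.31 to 0.11). The cause was not tested. Depth limits the shares of thinly read genes, such as Synpo2 with 1 read in its shallowest library.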

Other observations

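The 20 member transcripts whose level groups did not overlap included 14 that edgeR did not call. Both tested transcripts of fast troponin I, Tnni2-201 and Tnni2-206, were among them, with log2 level changes of 0.28 and 0.49 (edgeR adjusted p = 0.123 and 0.378). Ldha-202, of lactate dehydrogenase A, had 0.44 (edgeR adjusted p = 0.284), Myl1-202 0.23 (0.200) and Gapdh-203 0.39 (0.116). Lower in co-culture without overlap were Ncl-202, a retained-intron model of nucleolin, at -0.43 (0.261), Msmo1-201 at -0.65 (0.229) and Rbm39-201 at -1.98 (0.296). Tnni2, Ldha-202 and Ncl-202 were picked here after their values were seen.

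Genes were grouped by how their leading pair differs and counted where any tested transcript of the gene had a share without overlap. That transcript need not be of the pair: Spp1-204 lies outside the leading pair of Spp1. Pairs that differ at the last intron had such a gene in 5 of 152 (3.29%), and those that differ at the first intron in 2 of 343 (0.583%). Pairs that differ only inside had it in 1 of 131 (0.763%), at the first and last intron in 1 of 88, with an unspliced model in 0 of 21 and with the same introns in 0 of 16. By the same count, genes whose pair has different coding sequences gave 7 of 349, and those with the same coding sequence 2 of 195. Genes with 1 or both models of the pair without a coding sequence gave 0 of 195 and 0 of 12. Over all members this was 9 of 751 genes. These counts were not tested.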
